A study of Mus musculus with 12 samples.

Results

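Odorant receptor genes were followed on arrays of mouse olfactory epithelium, as all probe sets whose platform annotation gives 1 gene symbol beginning with Olfr and a digit. This gave 44 probe sets for 39 genes, of 45037 probe sets without controls, and 3 further probe sets that name several receptor genes were left out. The tissue was microdissected from male wild-type C57BL/6J mice aged 6 weeks, and all 4 groups had received liposomes by intranasal drops on 3 consecutive days and by vein on the first and last of these days. Lip-C liposomes carried clodronate, which kills phagocytes that take it up, and Lip-O liposomes were empty. On the second day the mice had both olfactory bulbs removed (olfactory bulbectomy, OBX) or a sham operation, and the epithelium was taken at 48 h. Lip-O sham, Lip-O OBX, Lip-C sham and Lip-C OBX each had 3 arrays, from samples that the titles call biological replicates. The labels leave unstated whether RNA of several mice was combined, and p-values measure only the spread between the samples of a group, which may be technical.

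Odorant receptors are G protein-coupled receptors in the cilia of olfactory sensory neurons. Each mature neuron transcribes 1 allele of 1 receptor gene out of a very large family, and the receptor signals through a G protein, adenylate cyclase and a cyclic nucleotide-gated channel. Class I receptors, related to those of fish, lie in 1 gene cluster and are used mostly by neurons of the dorsal epithelium, and class II receptors lie in many clusters and are used in zones from dorsal to ventral. Removing the bulb cuts the axons of these neurons, and mature neurons then die over the following days. A receptor's signal in tissue RNA therefore comes from the few neurons that chose it, and fewer such neurons and less receptor RNA per neuron cannot be told apart here.

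The measured receptors covered a small part of the family. By the family numbers in the reference gene table, 15 probe sets (11 genes) were class I and 29 (28 genes) were class II. A probe set was tested if its signal exceeded the array's 40th percentile, on average 71.66, on at least 3 arrays. This held for 34 receptor probe sets (77.3%) of 30 genes, against 64.4% of all probe sets. Of the other chemosensory families, 1 of 26 type 1 vomeronasal, 1 of 10 type 2 vomeronasal and 1 of 6 taste receptor probe sets passed. At the 30th percentile 39 of the 44 receptor probe sets passed, or 88.6% against 75.7% of all probe sets. At the 50th percentile 23 passed, or 52.3% against 53.3%, so receptors had no excess there. The class I group contributed 14 tested probe sets and class II 20, and 14 members exceeded the threshold on all 12 arrays.

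Members just inside the threshold were Olfr288, Olfr1509, Olfr70, Olfr71 and Olfr64, each above it on 3 arrays. Olfr288, Olfr1509 and Olfr71 passed through the 3 Lip-O sham arrays alone, so they had to be lower elsewhere, and their values and p-values are descriptions alone. Olfr70 passed through sham arrays alone, 2 of Lip-O and 1 of Lip-C, which favours a lower value after OBX. Just outside were Olfr1507 and Olfr315, above it on 2 arrays, and Olfr155 and Olfr156, above it on 1. Olfr74, Olfr75-ps1, Olfr159, Olfr157, Olfr2 and 1 of the 2 Olfr66 probe sets were above it on no array. Olfr155, Olfr156, Olfr157 and Olfr159, a subfamily whose neurons lie in a central patch of the epithelium, were thus all too dim to test. Their genes share a cluster with Olfr70 and Olfr71, both of which passed.

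Arrays numbered 3 of both OBX groups stood apart. Beside class I receptors, described below, Omp, the cytoplasmic marker of mature olfactory neurons, gave 6768.5, 7543.1 and 11517.3 in the Lip-O OBX group, with 11678.6, 11605.8 and 13706.2 in the Lip-C OBX group. The Lip-O sham arrays read 16164.5, 16196.6 and 18212.6 and the Lip-C sham arrays 14448.8, 16242.6 and 16024.2 for the same gene. The summed signal of 12 macrophage markers was lowest within each OBX group on array 3, at 8389.1 in Lip-O and 8072.4 in Lip-C, against up to 14157.0 and 10821.8 on the others. The sum of 5 bone markers was lowest there too, at 8895.3 in Lip-O and 8789.8 in Lip-C, where the other arrays of the OBX groups read 21993.8 and 23986.8 in the former and 15949.6 and 22396.1 in the latter. The part of these markers in the receptor values was not tested. Counts of receptors, and the named calls that these arrays decide, are given with and without them, an alternative chosen after seeing the data.

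With empty liposomes, many of the tested receptors fell after OBX and none rose. In limma's moderated test 17 of 34 probe sets were lower and 0 were higher, or 50%, where 8.55% of all 28986 probe sets were lower and 8.32% higher (16.9% in all). The median log2 change of the members was -0.68, against 0.03 over all probe sets, and 33 of 34 changes were negative. At an unadjusted p under 0.05, 21 members were lower and 0 higher, beside 14.8% and 16.9% of all probe sets. Groups were apart, with every OBX array below every sham array, for 18 members and 17.1% of all probe sets, and apart the other way for 0 members and 18.7%. Of the 31 members that did not pass through a single group, 14 were lower. These 14 include Olfr70, which passed through sham arrays alone, so the filter favours a lower call for it. With a filter on the mean over all arrays, which does not look at groups, 13 of 27 members were lower.

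After clodronate the same operation lowered 12 of 34 receptor probe sets and raised 0, or 35.3%, where 6.38% of all probe sets were lower and 6.74% higher (13.1% in all). The median log2 change was -0.72, against 0.03 over all probe sets, and 30 of 34 changes were negative. At an unadjusted p under 0.05, 19 members were lower and 1 was higher, beside 13.4% and 16.8% of all probe sets. Groups were apart with OBX lower for 20 members and 15.7% of all probe sets, and with OBX higher for 0 members and 19.9%. With the filter on the mean over all arrays 13 of 27 were lower. The count was 4 to 6 when any 1 Lip-C sham array, or Lip-C OBX array 1 or 2, was left out, and 15 without Lip-C OBX array 3. It was 6 with no filter on dim probe sets and 7 with only the compared groups in the fit. This comparison uses none of the arrays of the Lip-O comparison, only the same estimate of each probe set's spread. The sum of the members' signals in OBX mice was 57.7% of the sham mean in Lip-O mice and 58.2% in Lip-C mice. Over both liposome treatments in 1 test, 20 members were lower and 0 higher, where 11.8% of all probe sets were lower and 14.1% higher (25.9% in all), and all 34 changes were negative. The 34 include Olfr288, Olfr1509, Olfr71 and Olfr70, which passed the filter through sham arrays alone.

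**Figure D1:**
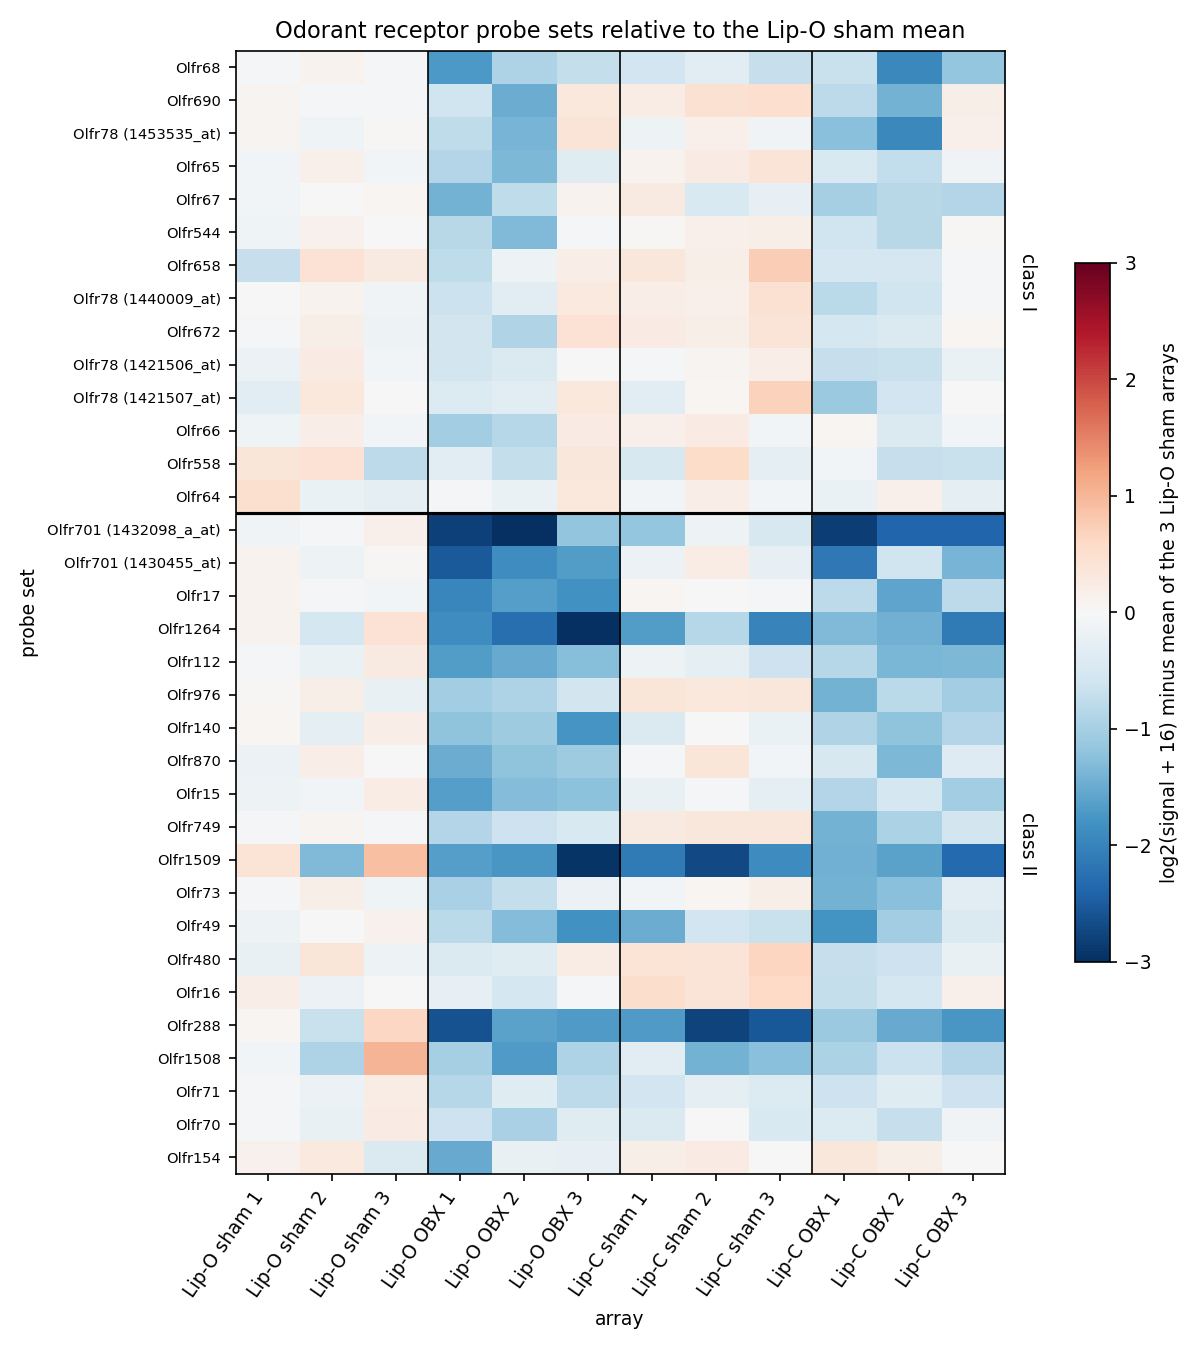
Each row is 1 of the 34 receptor probe sets tested and each column 1 of the 12 arrays, and the colour is log2(signal + 16) minus the mean of the 3 Lip-O sham arrays, cut at 3 either way. Class I rows (14) are above the line and class II rows (20) below it, and most class I rows turn pale or red on OBX arrays 3; in the Lip-O group 6 of 14 exceeded every sham array there.

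Called lower in both OBX comparisons were 9 probe sets of 8 genes, all class II: Olfr17, Olfr15, Olfr112, Olfr140, Olfr870, Olfr749, Olfr976 and both probe sets of Olfr701. They made up 52.9% of the calls in Lip-O mice and 75% of those in Lip-C mice. Across the 34 members the changes in the 2 comparisons had r = -0.0731 and rho = -0.0191 over probe sets, which are not independent replicates. The 34 include Olfr288, Olfr1509 and Olfr71, which passed the filter through the Lip-O sham arrays alone. They were under the threshold on every Lip-C array, so r and rho rest partly on dim signals.

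Olfr17, the receptor known as P2 whose axons are much used to map glomeruli, read 563.5, 511.8 and 489.2 on the Lip-O sham arrays and 121.2, 155.1 and 136.3 on the Lip-O OBX arrays. The Lip-O groups were far apart, and no OBX array came near a sham array. With clodronate its signals were 542.5, 522.4 and 505.1 on the Lip-C sham arrays and 293.0, 162.8 and 296.4 on the Lip-C OBX arrays, again without overlap. The log2 changes were -1.81 ± 0.19 (SE, limma adjusted p = 0.00106) in Lip-O mice and -1.06 ± 0.19 (adjusted p = 0.00933) in Lip-C mice. Both calls held when any 1 array was left out.

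Olfr15 read 893.3, 947.1 and 1171.1 on the Lip-O sham arrays and 308.8, 396.7 and 415.0 on the Lip-O OBX arrays, so every OBX array lay below every sham array. In the Lip-C groups it read 858.3, 963.0 and 813.4 on the Lip-C sham arrays and 533.9, 691.5 and 475.8 on the Lip-C OBX arrays, and these groups did not overlap either. It fell by 1.39 ± 0.16 on the log2 scale in Lip-O mice (limma adjusted p = 0.00128) and by 0.63 ± 0.16 in Lip-C mice (adjusted p = 0.0304). The call in Lip-C mice was lost in 5 of 12 fits that left out 1 array (adjusted p up to 0.103) and without both OBX arrays 3 (-0.52, adjusted p = 0.0704). Olfr15 and Olfr17 were also the members with the smallest p for a Lip-C effect within OBX mice, given below.

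Olfr112 had 187.7, 168.7 and 243.6 on the Lip-O sham arrays and 51.1, 58.7 and 71.9 on the Lip-O OBX arrays. The OBX arrays all lay below the sham arrays, with a mean under the arrays' 40th percentile, so no log2 change is given (limma adjusted p = 0.0015). Its Lip-C signals were 177.7, 157.5 and 123.4 on the Lip-C sham arrays and 101.9, 67.3 and 68.6 on the Lip-C OBX arrays, and it fell by 0.83 ± 0.18 (adjusted p = 0.0188). Olfr140 had 579.0, 452.1 and 640.3 on the Lip-O sham arrays and 231.4, 256.7 and 151.6 on the Lip-O OBX arrays. Its Lip-C values were 402.4, 559.6 and 480.7 on the Lip-C sham arrays and 286.2, 228.0 and 293.3 on the Lip-C OBX arrays, the changes being -1.34 ± 0.20 (adjusted p = 0.00287) and -0.80 ± 0.20 (adjusted p = 0.0282). Neither gene had an OBX array above a sham array of its own liposome group. Olfr112 lost the call in Lip-C mice in 3 of 12 fits that left out 1 array (adjusted p up to 0.0714). Olfr140 lost it in 4 of 12 (adjusted p up to 0.103).

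Olfr870 gave 423.8, 547.5 and 472.0 on the Lip-O sham arrays and 161.0, 197.9 and 220.9 on the Lip-O OBX arrays. It gave 467.2, 624.8 and 453.9 on the Lip-C sham arrays and 338.3, 179.6 and 361.2 on the Lip-C OBX arrays, and in both pairs of groups the OBX arrays were all lower. It fell by 1.25 ± 0.24 (limma adjusted p = 0.00691) and by 0.83 ± 0.24 (adjusted p = 0.0437). The call in Lip-C mice was lost in 9 of 12 fits that left out 1 array (adjusted p up to 0.14). With the replicate number as a block it was lost too (adjusted p = 0.0596). Olfr701 was measured by 2 probe sets, of which 1 read 375.5, 310.5 and 358.3 on the Lip-O sham arrays and 47.5, 84.3 and 98.1 on the Lip-O OBX arrays. In Lip-C mice that probe set read 306.3, 404.5 and 290.9 on the Lip-C sham arrays and 66.4, 222.2 and 121.8 on the Lip-C OBX arrays, with array 2 of the OBX group higher than the other two. The changes were -2.01 ± 0.33 (adjusted p = 0.00427) and -1.31 ± 0.33 (adjusted p = 0.0294), and the latter call was lost in 5 of 12 fits that left out 1 array (adjusted p up to 0.099) and without both OBX arrays 3 (adjusted p = 0.055). The second probe set went from 187.4, 193.6 and 224.5 to 15.2, 9.9 and 79.1 in Lip-O mice, and from 81.6, 178.3 and 140.9 to 14.9, 25.6 and 25.9 in Lip-C mice. It was called lower in both comparisons too (adjusted p = 0.00547 and adjusted p = 0.0172), from signals that ended under the 40th percentile. Its call in Lip-C mice was lost in 4 of 12 fits that left out 1 array (adjusted p up to 0.072).

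Olfr749 and Olfr976 had the larger change after clodronate. Olfr749 read 741.4, 798.6 and 740.5 on the Lip-O sham arrays and 407.1, 485.5 and 545.1 on the Lip-O OBX arrays. After clodronate it read 912.2, 961.1 and 960.9 on the Lip-C sham arrays and 273.5, 388.1 and 515.4 on the Lip-C OBX arrays. Its Lip-C sham arrays were the highest of the 4 groups, and the fall was 0.66 ± 0.18 (limma adjusted p = 0.0342) in Lip-O mice and 1.28 ± 0.18 (adjusted p = 0.00654) in Lip-C mice. The call in Lip-O mice was lost in 5 of 12 fits that left out 1 array (adjusted p up to 0.123). Olfr976 read 293.1, 321.4 and 242.3 on the Lip-O sham arrays and 128.6, 140.8 and 189.9 on the Lip-O OBX arrays. Its Lip-C values were 366.5, 359.3 and 365.7 on the Lip-C sham arrays and 96.1, 156.3 and 128.9 on the Lip-C OBX arrays, a change of -1.43 ± 0.17 (adjusted p = 0.00529) after -0.84 ± 0.17 (adjusted p = 0.00981) in Lip-O mice. The difference between the 2 changes did not pass for either gene (interaction adjusted p = 0.242 for Olfr749 and 0.238 for Olfr976).

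**Figure D2:**
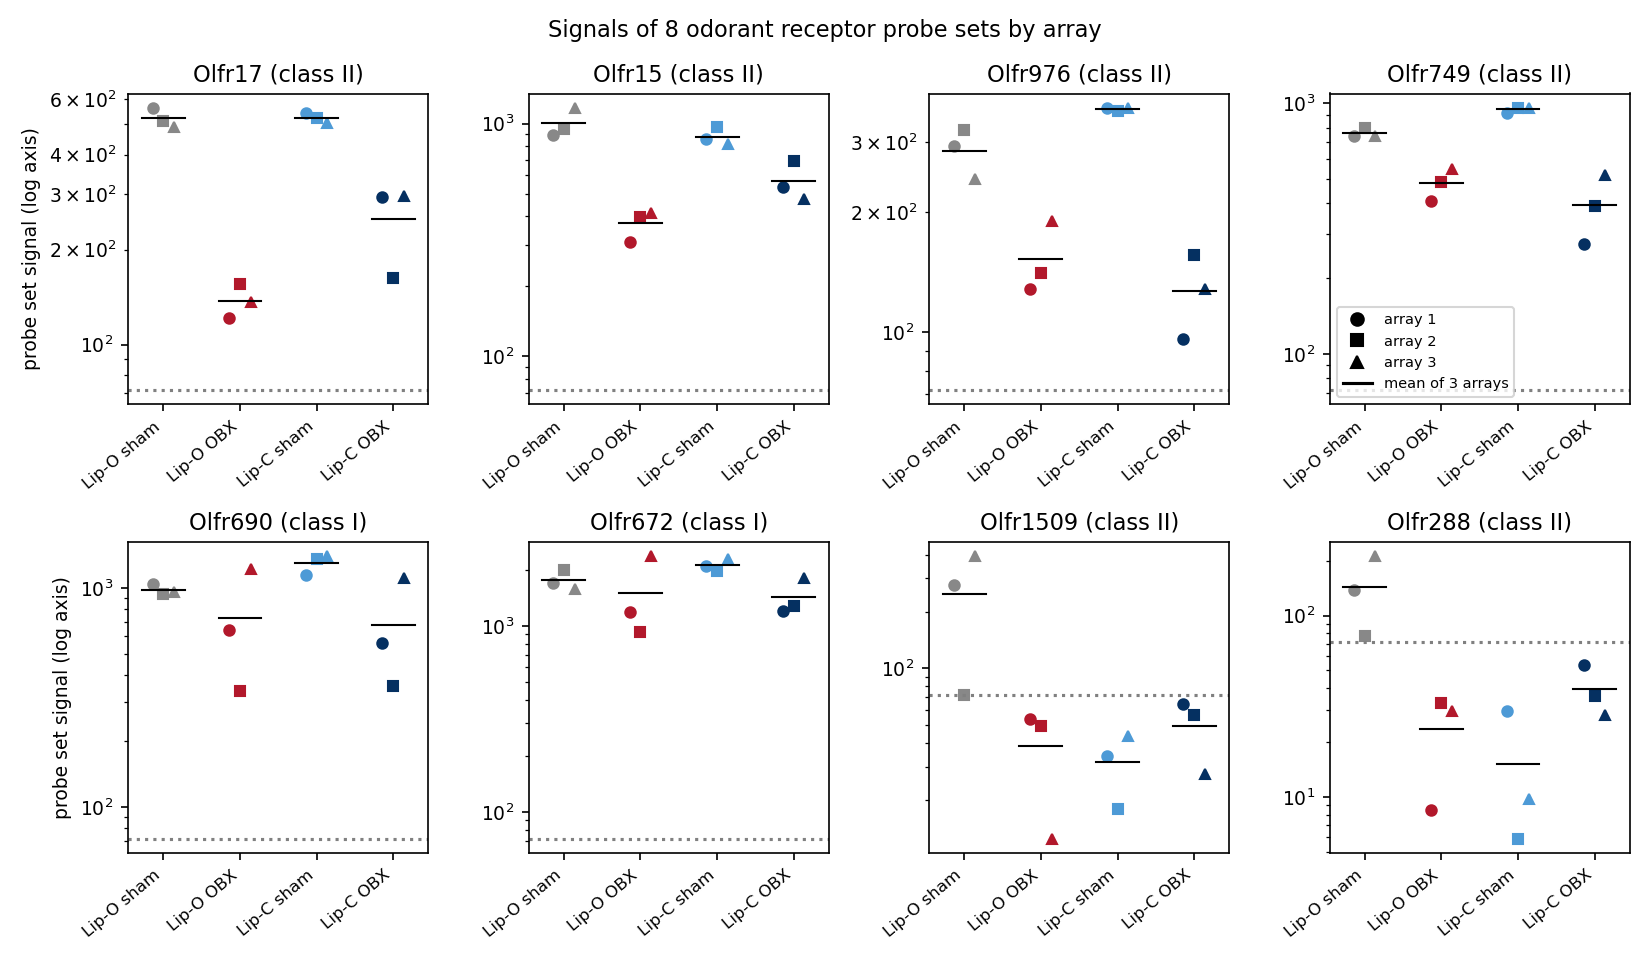
Signals of 8 receptor probe sets on a log axis, 1 symbol per array (circle, square and triangle for arrays 1, 2 and 3), with the mean of each group as a bar and the mean 40th percentile (71.66) as a dotted line. Olfr17, Olfr15, Olfr976 and Olfr749 were lower on all OBX arrays of both liposome groups, whereas OBX arrays 3 of Olfr690 and Olfr672 reached 1215.8 and 2368.2 in Lip-O mice.

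Sequence upstream of the receptors was taken from the RefSeq promoter table of build GRCm38.p6, which held 29 of the 39 genes. In 10 of these 29 (34.5%) the gene model begins at the start codon, so the window is then not upstream of a transcript start. The same holds for 72.4% of the 948 odorant receptor genes in the table and 5.83% of all 32851 promoters. The motif shares below therefore compare unlike windows. The motifs searched on both strands of the 250 upstream bases were TAATGA and TAATTA, homeodomain core sequences of the kind bound by the receptor regulators Lhx2 and Emx2, and CCCNNGGG, the core of an Ebf site. TAATGA was found in 7 member promoters (24.1%), in 25.2% of the 948 promoters of odorant receptor genes in the table and in 8.59% of all 32851 promoters. Among members it occurred in 6 of 21 class II and 1 of 8 class I promoters. TAATTA was in 2 members (6.9%), against 18.0% of receptor promoters and 4.84% of all. CCCNNGGG was in 1 member (3.45%), against 2.74% and 11.8%. A match describes the letters and is not a binding site.

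Upstream windows of 5 genes are shown: those of Olfr701 and Olfr749, which were lower in both OBX comparisons, Olfr1508 and Olfr1509, which are neighbours and share a pattern described below, and Olfr690, a class I member that was above every Lip-O sham array on Lip-O OBX array 3. All are written 5′ to 3′ on the gene's strand and end at the base before the annotated start, with TAATGA, or its reverse complement TCATTA, in capitals. Olfr690 has neither. Neither do Olfr15, Olfr17, Olfr140 and Olfr976, which were lower in both OBX comparisons and are not shown. Olfr870, also lower in both and not shown, has TAATGA. The windows shown therefore do not represent the genes lower in both comparisons. A link between the motif and the change after OBX was not tested. The windows are chr7:106813879-106814128 (plus strand) for Olfr701, chr14:50744325-50744574 (minus strand) for Olfr749, chr14:52467462-52467711 (minus strand) for Olfr1508, chr14:52450143-52450392 (plus strand) for Olfr1509 and chr7:105330279-105330528 (minus strand) for Olfr690.
Olfr701: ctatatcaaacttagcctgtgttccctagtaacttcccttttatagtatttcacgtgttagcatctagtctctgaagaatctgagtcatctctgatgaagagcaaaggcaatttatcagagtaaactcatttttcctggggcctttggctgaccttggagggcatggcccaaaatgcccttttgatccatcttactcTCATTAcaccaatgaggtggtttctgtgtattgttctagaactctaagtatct
Olfr749: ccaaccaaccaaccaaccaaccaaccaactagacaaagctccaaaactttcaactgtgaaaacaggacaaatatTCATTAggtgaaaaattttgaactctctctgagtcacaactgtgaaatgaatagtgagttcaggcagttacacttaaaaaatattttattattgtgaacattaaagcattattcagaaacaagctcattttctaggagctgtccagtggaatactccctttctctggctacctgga
Olfr1508: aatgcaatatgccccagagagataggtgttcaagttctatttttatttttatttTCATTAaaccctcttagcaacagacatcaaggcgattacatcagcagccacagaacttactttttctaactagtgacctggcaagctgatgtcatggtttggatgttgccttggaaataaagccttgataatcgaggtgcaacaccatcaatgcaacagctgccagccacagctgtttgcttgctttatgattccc
Olfr1509: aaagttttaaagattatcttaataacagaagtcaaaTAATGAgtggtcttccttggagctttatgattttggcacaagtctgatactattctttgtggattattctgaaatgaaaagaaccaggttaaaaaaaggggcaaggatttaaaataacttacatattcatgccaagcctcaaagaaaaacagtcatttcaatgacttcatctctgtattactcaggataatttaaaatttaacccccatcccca
Olfr690: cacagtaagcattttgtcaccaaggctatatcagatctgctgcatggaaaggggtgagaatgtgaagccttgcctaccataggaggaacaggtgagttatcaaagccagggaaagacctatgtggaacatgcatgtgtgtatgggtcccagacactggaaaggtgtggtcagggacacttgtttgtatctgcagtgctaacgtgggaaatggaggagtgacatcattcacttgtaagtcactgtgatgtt

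Class I receptors, all in 1 gene cluster, had few calls, and their count turned on OBX arrays 3. With all arrays, 2 of 14 class I probe sets were lower in Lip-O mice, Olfr65 and Olfr68, with a class median of -0.45 on the log2 scale. For class II it was 15 of 20, with a median of -1.28, where 8.55% of all probe sets were lower. Olfr288, Olfr1509 and Olfr71 had passed the filter through the Lip-O sham arrays alone. Without them class II had 12 of 17 lower, with a median of -1.25. The 17 still include Olfr70, which passed through sham arrays alone. In Lip-C mice 0 of 14 class I probe sets passed limma's threshold (at an unadjusted p under 0.05, 7 were lower, where 13.4% of all probe sets were, and 0 higher), with a median of -0.69, and 12 of 20 class II probe sets were lower, with a median of -0.81. Without OBX arrays 3 of both liposome groups, 9 of 14 class I probe sets were lower in Lip-O mice and 7 of 14 in Lip-C mice, where 8.48% and 8.02% of all probe sets were lower. The class II counts without them were 14 of 20 and 10 of 20, and the class I medians were -0.84 and -0.80. The difference between the classes was not tested.

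On Lip-O OBX arrays 1, 2 and 3, 12, 10 and 2 of the 14 class I probe sets were below all 3 Lip-O sham arrays. None exceeded all sham arrays on arrays 1 and 2, and 6 did on array 3. The median class I signal there was 59.5%, 50.3% and 122% of the probe set's own sham mean. For the 20 class II probe sets the medians were 36.0%, 39.6% and 41.2%, and 20, 19 and 16 were below all sham arrays. In Lip-C mice the class I medians were 56.7%, 50.6% and 80.6% of the sham mean, and no class II median exceeded 65.5%. By these medians, array 3 of the Lip-O OBX group had class II receptors near the other Lip-O OBX arrays and class I receptors above sham. Single members varied within each class. Of class II, Olfr73 read 319.4, 383.4 and 565.5 on Lip-O OBX arrays 1, 2 and 3, and Olfr140 read 231.4, 256.7 and 151.6.

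Olfr672 had 1700.1, 1986.9 and 1584.4 on the Lip-O sham arrays and 1181.3, 924.7 and 2368.2 on the Lip-O OBX arrays. On the Lip-C arrays it had 2083.8, 1973.0 and 2298.9 on the Lip-C sham arrays and 1205.0, 1284.3 and 1810.8 on the Lip-C OBX arrays. Array 3 was the highest of its OBX group in both, and in Lip-O mice it exceeded every sham array. The log2 changes were -0.34 ± 0.29 (limma adjusted p = 0.448) and -0.58 ± 0.29 (adjusted p = 0.201), and without OBX arrays 3 they were -0.73 (adjusted p = 0.0115) and -0.76 (adjusted p = 0.0103).

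Olfr690, a receptor for isovaleric acid, was spread widely over the OBX arrays, with 1039.5, 937.9 and 960.9 on the Lip-O sham arrays and 638.9, 338.3 and 1215.8 on the Lip-O OBX arrays. On the Lip-C arrays it gave 1138.7, 1352.0 and 1394.2 on the Lip-C sham arrays and 560.0, 356.3 and 1109.2 on the Lip-C OBX arrays. In both liposome groups arrays 1 and 2 were under every sham array, and array 3 was not. The change was -0.59 ± 0.43 (limma adjusted p = 0.385) in Lip-O mice and -1.07 ± 0.43 (adjusted p = 0.126) in Lip-C mice, and without OBX arrays 3 it was -1.05 (adjusted p = 0.0298) and -1.50 (adjusted p = 0.00862). Olfr544, a receptor for azelaic acid, read 225.7, 269.8 and 247.2 on the Lip-O sham arrays and 130.6, 88.3 and 238.3 on the Lip-O OBX arrays. After clodronate it read 255.1, 274.3 and 280.0 on the Lip-C sham arrays and 157.1, 132.7 and 253.6 on the Lip-C OBX arrays, and array 3 was again the highest of each OBX group. Its changes of -0.74 ± 0.29 (adjusted p = 0.104) and -0.58 ± 0.29 (adjusted p = 0.204) became -1.09 (adjusted p = 0.00349) and -0.83 (adjusted p = 0.0101) without OBX arrays 3.

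Olfr65 was called with all arrays in Lip-O mice, with 617.0, 730.2 and 618.8 on the Lip-O sham arrays and 347.1, 247.7 and 507.3 on the Lip-O OBX arrays. All 3 OBX arrays were below the sham arrays, array 3 by the least, and the fall was 0.86 ± 0.23 (limma adjusted p = 0.0285). With clodronate it had 698.8, 772.3 and 857.7 on the Lip-C sham arrays and 474.5, 382.6 and 610.6 on the Lip-C OBX arrays, a change of -0.67 ± 0.23 (adjusted p = 0.0785). The call in Lip-O mice was lost in 5 of 12 fits that left out 1 array (adjusted p up to 0.0857). Without OBX arrays 3 Olfr65 was lower in Lip-C mice too (-0.84, adjusted p = 0.0135). Olfr68 read 125.2, 140.8 and 124.2 on the Lip-O sham arrays and 28.4, 60.7 and 72.7 on the Lip-O OBX arrays; its OBX mean lay under the 40th percentile (adjusted p = 0.0317). On the Lip-C arrays, where OBX and sham overlapped, Olfr68 read 82.1, 101.0 and 74.0 on the Lip-C sham arrays and 75.5, 22.1 and 48.8 on the Lip-C OBX arrays (adjusted p = 0.138). With the replicate number as a block 1 of 14 class I probe sets was lower in Lip-O mice and 4 of 14 were in Lip-C mice. Same-numbered Lip-C sham and Lip-C OBX samples had r = 0.117, 0.0487 and 0.0847 across probe sets, and differently numbered ones had -0.129 to 0.0489.

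Olfr78, a class I receptor also present in kidney vessels and the carotid body, was measured by 4 probe sets. The 1 of them with the highest mean signal read 404.8, 429.5 and 371.3 on the Lip-O sham arrays and 251.3, 318.3 and 498.0 on the Lip-O OBX arrays. In Lip-C mice it read 460.1, 445.3 and 556.3 on the Lip-C sham arrays and 221.0, 259.3 and 385.9 on the Lip-C OBX arrays. None of the 4 was called in either comparison; the changes ranged from -0.59 to -0.13 in Lip-O mice and from -0.98 to -0.59 in Lip-C mice. Without OBX arrays 3, 2 of the 4 were lower in Lip-O mice and 3 of the 4 in Lip-C mice. All 4 were highest on array 3 within each OBX group. The remaining class I members Olfr67, Olfr658, Olfr558, Olfr64 and Olfr66 were not called in either comparison with all arrays, with changes from -0.78 to 0.02. Without OBX arrays 3, Olfr67 and Olfr66 were lower in Lip-O mice (limma adjusted p = 0.0177 and 0.0103). In Lip-C mice neither passed (adjusted p = 0.0587 and 0.286).

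**Figure D3:**
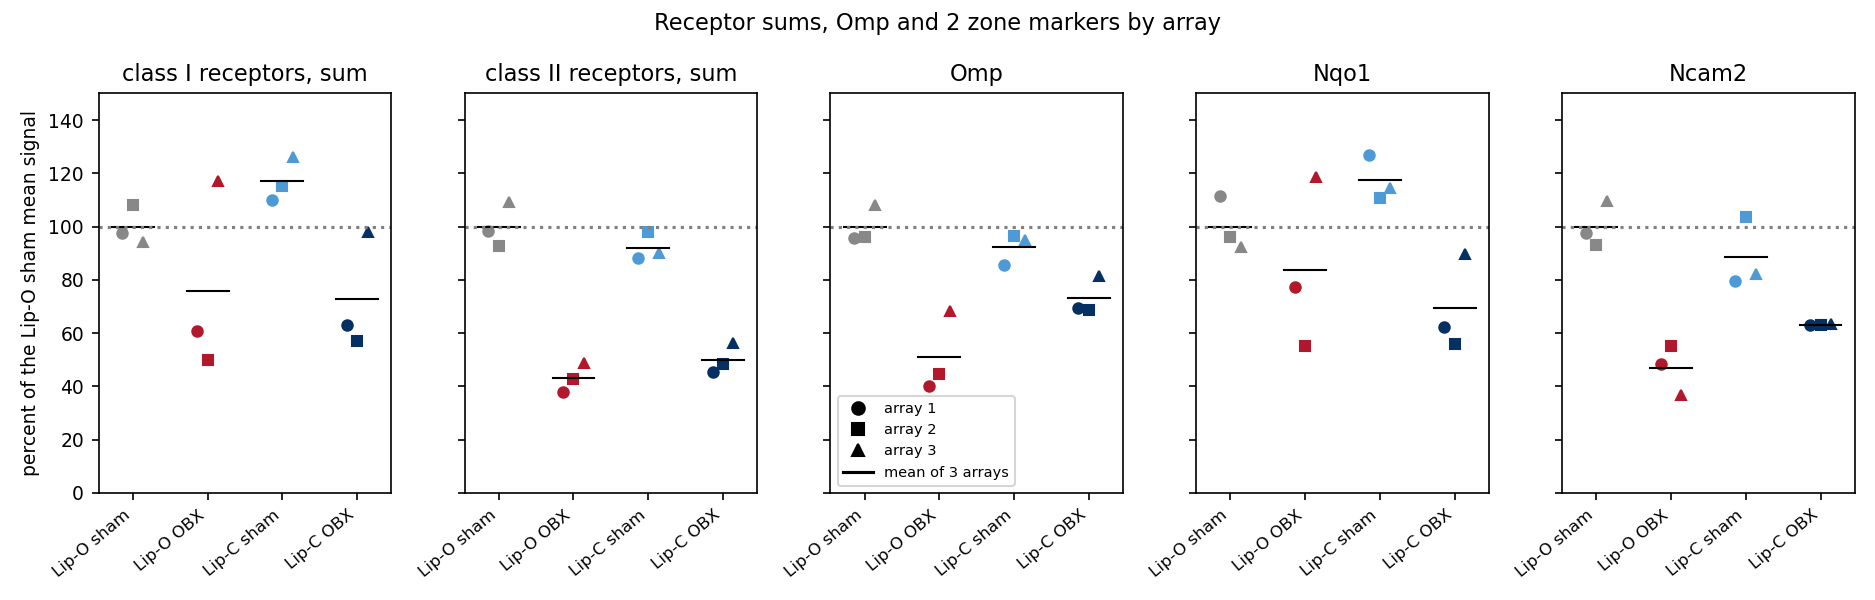
Summed signals of the 14 class I and 20 class II receptor probe sets and the signals of Omp, Nqo1 and Ncam2, each as a percent of its Lip-O sham mean (dotted line at 100), 1 symbol per array, with bars at group means of 3 arrays. Class I receptors and Nqo1 reached 117% and 119% on Lip-O OBX array 3, while class II receptors stayed at 49.0% and Ncam2 at 36.8%.

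Zone markers were read beside the classes. Nqo1, an enzyme of dorsal-zone neurons, read 10176.5, 8777.3 and 8421.3 on the Lip-O sham arrays and 7055.6, 5024.3 and 10825.8 on the Lip-O OBX arrays. It read 11574.3, 10112.8 and 10436.5 on the Lip-C sham arrays and 5677.0, 5103.5 and 8175.0 on the Lip-C OBX arrays. On array 3 of each OBX group Nqo1 was the highest, as the class I sum was, which read 2667.7 at the lowest and 6251.5 at the highest in Lip-O OBX mice. Ncam2, an adhesion molecule of the other zones, read 1013.7, 966.3 and 1139.8 on the Lip-O sham arrays and 503.1, 573.2 and 382.8 on the Lip-O OBX arrays, lowest on array 3. In the Lip-C groups Ncam2 read 828.6, 1077.9 and 853.5, then 656.7, 657.1 and 658.5 after OBX. Ncam2 fell by 1.09 ± 0.15 in Lip-O mice (limma adjusted p = 0.00186), and in Lip-C mice its change was -0.47 ± 0.15 (adjusted p = 0.0593). The other 2 zone markers tested were lowest on Lip-O OBX array 3. Nrp2 read 1033.0, 953.5 and 1128.7 on the Lip-O sham arrays and 905.8, 1049.6 and 608.2 on the Lip-O OBX arrays. Msx1 read 127.7, 180.4 and 270.6, then 189.7, 185.4 and 117.5 after OBX. On the Lip-C OBX arrays Nrp2 read 885.6, 988.5 and 920.0, and Msx1 read 107.9, 72.7 and 157.5, highest on array 3. Nqo1, Nrp2 and Msx1 were called in neither comparison. The part of epithelial zone in the receptor values was not tested.

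Olfr16, Olfr480 and Olfr73 are class II receptors that were called lower in Lip-C mice and missed the threshold in Lip-O mice with all arrays. Olfr73, a eugenol receptor, read 620.0, 725.9 and 586.2 on the Lip-O sham arrays and 319.4, 383.4 and 565.5 on the Lip-O OBX arrays. It read 603.8, 671.9 and 723.5 on the Lip-C sham arrays and 230.6, 260.2 and 506.2 on the Lip-C OBX arrays, and array 3 was the highest of both OBX groups. The changes were -0.62 ± 0.27 (limma adjusted p = 0.139) and -1.05 ± 0.27 (adjusted p = 0.0304), and without OBX arrays 3 Olfr73 was lower in both (-0.85, adjusted p = 0.00556, and -1.38, adjusted p = 0.00178). Olfr16, known as MOR23 and responsive to lyral, had 430.5, 330.8 and 371.6 on the Lip-O sham arrays and 314.3, 255.9 and 361.6 on the Lip-O OBX arrays. In Lip-C mice it had 551.2, 499.3 and 578.4 on the Lip-C sham arrays and 222.4, 254.7 and 417.4 on the Lip-C OBX arrays, where the sham arrays all exceeded the Lip-O sham arrays. It fell by 0.88 ± 0.21 (adjusted p = 0.0224) there, against -0.27 ± 0.21 (adjusted p = 0.398) in Lip-O mice. Olfr480 had 102.8, 162.2 and 109.3 on the Lip-O sham arrays and 85.8, 91.3 and 146.1 on the Lip-O OBX arrays. Its Lip-C signals were 169.4, 164.2 and 201.6 on the Lip-C sham arrays and 69.8, 73.4 and 102.3 on the Lip-C OBX arrays, where OBX and sham did not overlap (adjusted p = 0.0154), against a change of -0.19 ± 0.21 (adjusted p = 0.572) with empty liposomes. Without OBX arrays 3 Olfr16 and Olfr480 still missed the threshold in Lip-O mice (adjusted p = 0.0961 and 0.146). With 1 array left out, Olfr73 and Olfr16 each lost the Lip-C call in 5 of 12 fits and Olfr480 in 3. The highest adjusted p was 0.116 for Olfr73, 0.0877 for Olfr16 and 0.067 for Olfr480. The interaction did not pass for these genes (adjusted p = 0.588 for Olfr73, 0.301 for Olfr16 and 0.187 for Olfr480).

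Another set of class II receptors had their highest signals on Lip-O sham arrays 1 and 3. Olfr1507, Olfr1508 and Olfr1509 are neighbouring genes, and Olfr1507, known as MOR28, is a classic ventral-zone receptor. Olfr1509 had 276.4, 72.0 and 393.9 on the Lip-O sham arrays and 53.7, 49.3 and 12.4 on the Lip-O OBX arrays. On the Lip-C arrays it had 34.2, 17.8 and 43.4 on the Lip-C sham arrays and 64.3, 56.5 and 27.3 on the Lip-C OBX arrays, all under the 40th percentile. In Lip-O mice OBX and sham did not overlap (limma adjusted p = 0.0235, and 0.0699 without OBX arrays 3), but sham array 2 was close to the OBX arrays. Leaving out 1 array lost this call in 3 of 12 fits (adjusted p up to 0.0827).

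Olfr1507, which was too dim to be tested, read 137.3, 20.7 and 402.8 on the Lip-O sham arrays and 16.6, 4.9 and 2.6 on the Lip-O OBX arrays. With clodronate it gave 7.6, 18.3 and 35.0 on the Lip-C sham arrays and 24.4, 22.4 and 4.3 on the Lip-C OBX arrays. Only Lip-O sham arrays 1 and 3 were above the threshold. Olfr1508 read 152.7, 77.2 and 342.6 on the Lip-O sham arrays and 73.4, 38.7 and 78.3 on the Lip-O OBX arrays. It read 127.0, 50.3 and 58.3 on the Lip-C sham arrays and 75.9, 97.0 and 81.2 on the Lip-C OBX arrays, and it was not called in Lip-O mice (limma adjusted p = 0.0849), where sham array 2 lay inside the range of the OBX arrays. Olfr749 lies in the same cluster of 37 receptor genes and did not share this order of arrays.

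Olfr288 and Olfr1264, in 2 other clusters, had the same low value on Lip-O sham array 2 relative to arrays 1 and 3. Olfr288 read 138.4, 77.6 and 212.6 on the Lip-O sham arrays and 8.5, 33.2 and 29.9 on the Lip-O OBX arrays. With clodronate it read 29.8, 5.9 and 9.7 on the Lip-C sham arrays and 53.3, 36.2 and 28.2 on the Lip-C OBX arrays, under the 40th percentile on all 6 arrays. It was lower after OBX in Lip-O mice (limma adjusted p = 0.00779) and not called in Lip-C mice (adjusted p = 0.151). Olfr1264 read 298.5, 187.8 and 378.4 on the Lip-O sham arrays and 64.3, 45.0 and 5.6 on the Lip-O OBX arrays. In the Lip-C groups it had 75.9, 146.3 and 57 on the Lip-C sham arrays and 101.8, 91.3 and 51.0 on the Lip-C OBX arrays, with OBX and sham overlapping. OBX lowered it in Lip-O mice (adjusted p = 0.00579) and its change in Lip-C mice was -0.12 ± 0.47 (adjusted p = 0.898).

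Olfr49, Olfr70 and Olfr71 completed the calls made in Lip-O mice alone. Olfr49 read 101.3, 113.9 and 126.4 on the Lip-O sham arrays and 57.4, 36.3 and 20.5 on the Lip-O OBX arrays (limma adjusted p = 0.0293). Olfr49 lost this call in 5 of 12 fits that left out 1 array (adjusted p up to 0.0868). Its Lip-C signals were 30.4, 71.3 and 64.9 on the Lip-C sham arrays and 21.6, 46.5 and 79.6 on the Lip-C OBX arrays and overlapped (adjusted p = 0.774). Olfr71 had 84.4, 75.4 and 104.7 on the Lip-O sham arrays and 41.6, 64.2 and 43.9 on the Lip-O OBX arrays (adjusted p = 0.0151, and 0.0514 without OBX arrays 3). Olfr70 had 69.9, 59.8 and 88.5 on the Lip-O sham arrays and 40.9, 28.9 and 52.2 on the Lip-O OBX arrays (adjusted p = 0.0488). It was above the 40th percentile on 2 Lip-O sham arrays and on 0 Lip-O OBX arrays. The 20th class II member, Olfr154, was not called in either comparison (adjusted p = 0.167 and 0.985). The Lip-O counts depended on the sham arrays: 11 members were lower without Lip-O sham array 1 and 10 without Lip-O sham array 3.

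**Figure D4:**
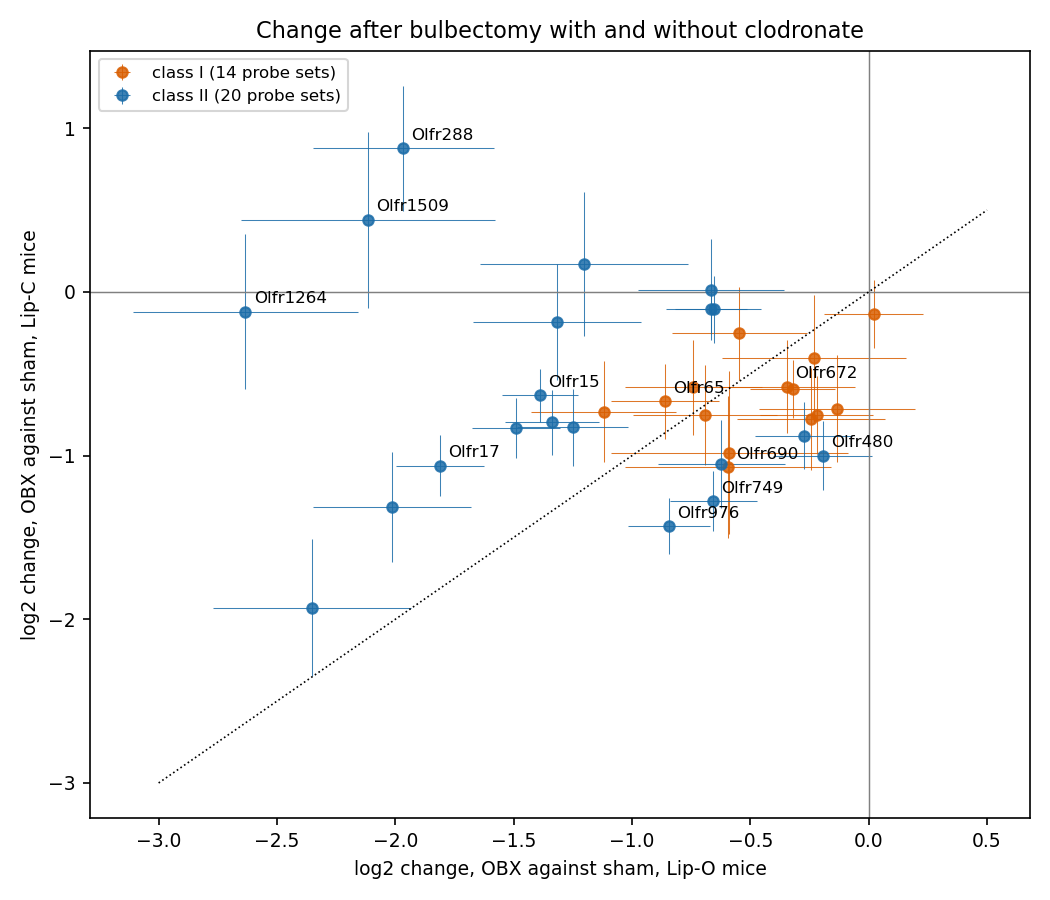
Log2 change after OBX in Lip-O mice (x axis) against that in Lip-C mice (y axis) for the 34 receptor probe sets, with standard errors as bars, class I in orange, class II in blue and equality as a dotted line. Changes run from -2.63 to 0.02 in Lip-O mice and from -1.93 to 0.88 in Lip-C mice, with 29 probe sets negative in both. Olfr288, Olfr1509 and Olfr1264 lie far to the left, with Olfr288 and Olfr1509 above 0 on the y axis and Olfr1264 just below it.

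Without OBX, the share of receptors called for clodronate was near that of all probe sets. In sham mice 2 of 34 members were lower, Olfr288 and Olfr1509, and 0 higher, or 5.88%, where 5% of all probe sets were called, 2.03% lower and 2.97% higher. At an unadjusted limma p under 0.05, 6 members were lower and 2 higher, all class II, beside 10.7% and 12.6% of all probe sets. Groups were apart with Lip-C lower for 7 members and 14.7% of all probe sets, and with Lip-C higher for 6 members and 16.2%. The 7 include Olfr288, Olfr1509 and Olfr71, for which the filter favours this order. Both called members had passed the filter through the Lip-O sham arrays alone, and no other member was called. Olfr288 went from a mean signal of 142.9 ± 67.6 (SD, n = 3) to 15.1 ± 12.8 (limma adjusted p = 0.0126), and Olfr1509 from 247 ± 163 to 31.8 ± 13.0 (adjusted p = 0.0422). The count was 0 without Lip-C sham array 3, and it was 1 without either Lip-O sham array 1 or 3, among others. Olfr1264 stood at 288 ± 95.7 and 93.1 ± 47.1 without passing (adjusted p = 0.0906, and 0.0397 without OBX arrays 3). The class I sum was 5027.4 to 5774.2 in Lip-O sham and 5859.9 to 6725.9 in Lip-C sham mice, and the class II sum 6259.8 to 7366.0 and 5953.7 to 6619.8. Bone markers moved with this comparison too, with 4 of 5 lower and summed signals of 16564.2 to 28324.5 in Lip-O sham and 3579.3 to 6226.5 in Lip-C sham mice. So did markers of neuronal precursors, of which 4 of 7 were lower (median log2 change -0.54, against 0 lower and 0 higher among 12 immature neuron markers), and 2 of 12 macrophage and 2 of 9 sustentacular markers were lower. The part of these markers in the receptor values was not tested.

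After OBX, no receptor passed between Lip-C and Lip-O mice. Limma called 0 of 34, where 0.228% of all probe sets were called (0.162% lower and 0.0655% higher), and 3 members were higher at an unadjusted p under 0.05, with 0 lower, beside 6.68% and 4.95% of all probe sets. These were Olfr17, at 137.5 ± 17.0 in Lip-O OBX and 251 ± 76.2 in Lip-C OBX mice (adjusted p = 0.171), Olfr15, at 374 ± 56.8 and 567 ± 112 (adjusted p = 0.21), and Olfr154, at 62.6 ± 33.3 and 114 ± 14.9 (adjusted p = 0.338). In each the groups did not overlap, as in 8.72% of all probe sets with Lip-C higher; no member had Lip-C lower without overlap, against 6.93%. Leaving out Lip-C OBX array 2 gave 1 call. Of 7 precursor markers 3 were lower in this comparison, and their part was not tested. Of the class II changes 14 of 20 were positive, with a median of 0.31, and of the class I changes 4 of 14, with a median of -0.14.

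The difference between the 2 OBX effects was tested as the interaction, and 0 of 34 members passed in limma, where 0.0345% of all probe sets did, 0.0172% in each direction. At an unadjusted p under 0.05 there were 12, of which 9 were positive (9.56% of all probe sets were positive and 8.69% negative at that p). Among the 9 positive were Olfr288, Olfr1509 and Olfr71, which had passed the filter through the Lip-O sham arrays alone so that a positive value follows from the filter; without them there were 9, 6 of them positive. Olfr288 had the smallest adjusted p, 0.0631, followed by Olfr1264 (adjusted p = 0.104), Olfr1509 (adjusted p = 0.124) and Olfr15 (0.76 ± 0.23, adjusted p = 0.128). The other side was led by Olfr480 (-0.81 ± 0.30, adjusted p = 0.187). Leaving out Lip-O OBX array 2 gave 1 call.

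Other genes of the receptor pathway were taken from lists of mature neuron genes and of genes for receptor choice and trafficking. Of 26 mature neuron genes tested, 17 were lower and 0 higher after OBX in Lip-O mice, with a median log2 change of -0.74, and 12 were lower and 0 higher after clodronate, with a median of -0.53. Adcy3, the adenylate cyclase of the cilia, fell by 0.99 ± 0.22 (limma adjusted p = 0.0141) and 0.83 ± 0.22 (adjusted p = 0.0358). The channel subunit Cnga2 fell by 0.72 ± 0.16 (adjusted p = 0.0131) and 0.57 ± 0.16 (adjusted p = 0.0395). Gnal, the G protein that receptors activate, fell by 0.53 ± 0.15 in Lip-O mice (adjusted p = 0.0332), and its change in Lip-C mice was -0.45 ± 0.15 (adjusted p = 0.0649). Omp fell by 1.01 ± 0.17 in Lip-O mice (adjusted p = 0.00464), and in Lip-C mice its change was -0.34 ± 0.17 (adjusted p = 0.208). Its OBX mean was 51.1% of the sham mean with empty liposomes and 79.2% with clodronate, beside 43.2% and 54.3% for the class II receptor sum and 76.0% and 62.1% for the class I sum. Differences between Omp and either receptor class were not tested.

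Among 20 genes of receptor choice, expression and trafficking, 3 were lower and 3 higher in Lip-O mice, and 7 were lower and 0 higher in Lip-C mice. Of all probe sets 8.55% were lower and 8.32% higher in Lip-O mice, and 6.38% and 6.74% in Lip-C mice. Ric8b, which keeps the olfactory G protein stable, fell by 1.32 ± 0.21 (limma adjusted p = 0.00391) and 0.81 ± 0.21 (adjusted p = 0.0332). Reep1, a receptor-trafficking factor, fell by 0.84 ± 0.14 and 0.82 ± 0.14, and the transcription factor Ebf4 by 0.60 ± 0.15 and 0.94 ± 0.15. In Lip-O mice the histone methyltransferase Ehmt2, which deposits marks found on silent receptor genes, rose by 0.54 ± 0.09 (adjusted p = 0.00387), and Reep6 and Nfib rose as well. In Lip-C mice Emx2 fell by 0.77 ± 0.15 (adjusted p = 0.0111) and Ebf1, Ebf2 and Ebf3 fell too. Lhx2, the homeodomain regulator of receptor genes, was not called in either (-0.21 ± 0.11 and -0.28 ± 0.11).

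Markers of other cells moved with OBX. Of 12 macrophage markers, 6 were higher with empty liposomes and 7 with clodronate, and their summed signal was 6062.5 to 7992.5 in Lip-O sham, 8389.1 to 14157.0 in Lip-O OBX, 4674.3 to 5901.8 in Lip-C sham and 8072.4 to 10821.8 in Lip-C OBX mice. The sum of 8 mature neuron markers was 86391.4 to 99677.5, 45192.3 to 72101.2, 92378.5 to 98047.0 and 63035.6 to 77275.7 in the same order, highest on array 3 of each OBX group. Among 12 immature neuron markers 2 were higher with empty liposomes and 2 lower with clodronate. Sustentacular markers, of supporting cells, were higher for 2 of 9 in each comparison, horizontal basal cell markers for 3 and 4 of 6, and Bowman gland markers for 3 and 2 of 7. Respiratory ciliated cell markers were lower for 5 of 9 with empty liposomes, while 0 were lower and 2 higher with clodronate. Bone markers were higher for 0 and 3 of 5, and precursor markers for 2 and 0 of 7. The part of cell composition in the receptor values was not tested.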

How the data were processed

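The authors deposited 1 table of linear intensity values, with 45101 probe sets on 12 arrays, and 64 control probe sets were left out. Per the labels, 3 µg of total RNA went into each labelling. How probes were summarised into probe sets is unstated in the labels. Array medians ran from 117.5 to 134.2, arrays of a group correlated at r = 0.9735 to 0.985 across probe sets, and no value column was unused.

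Values were taken as log2(signal + 16), which understates changes of dim genes. The 28986 probe sets above their array's 40th percentile (65.3 to 79.3) on at least 3 arrays were fitted with limma 3.58.1 in R 4.3.3, as 4 group means (8 residual degrees of freedom, with moderation adding 2.71). Two-sided p-values were adjusted over all 28986 probe sets of a comparison (Benjamini-Hochberg), with a threshold of 0.05. The fit was tested on simulated data. Where a single named receptor had a group mean under 71.66, its signals are given without a log2 change; medians, ranges and plots over members include dim ones. The number of arrays limits precision: the members' median standard error was 0.28. By the annotation 34945 probe sets have 1 gene symbol, 932 have several and 9160 have none. A probe set can also bind transcripts of similar receptors.

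Same-numbered Lip-O sham and Lip-O OBX samples deviated together (r = 0.233, 0.206 and 0.132 across probe sets), so a fit with the number as a block was run beside the main one. The members, gene lists and tests were chosen with earlier results of these data known. Named receptors were up to 10 with the largest called change per direction and comparison among those with groups apart, calls against the majority, the 10 with the highest mean signal and genes with several probe sets. Similarity to Omp across arrays was part of the rule and is not reported, since sham and OBX arrays form separate clusters. Other members are named from their place at the threshold or in a cluster, chosen after their values were seen. Class was read from receptor family numbers in a reference gene table of assembly GRCm38.p6. Alternatives were the filter, the pseudocount, the scaling, the choice of probe sets, the arrays in the fit, the block and leaving out each array.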

Additional observations from a re-analysis of the deposited data

How the results depend on the processing

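No called value changed direction in any alternative, and 11 alternatives to 5 uncalled differences between Lip-C and Lip-O mice near 0 did. Olfr672 in OBX mice (0.04) was -0.0181 with array medians centred, and leaving out 1 array gave -0.24 to 0.43 for it, -0.350 to 0.0816 for Olfr16 and -0.53 to 0.37 for Olfr690; in sham mice it gave -0.0133 to 0.137 for Olfr73 and -0.0536 to 0.183 for Olfr870. Counts of lower receptors in Lip-C mice after OBX moved from 12 to 6 without the filter on dim probe sets and to 7 with only the compared groups in the fit. For Lip-C in sham mice the count was 1 rather than 2 without the filter, with a filter on the mean over all arrays, with a pseudocount of 1, with 1 probe set per gene, with a gene's probe sets averaged and with only the compared groups in the fit. Leaving out 1 array at a time gave 10 to 19 receptors for OBX in Lip-O mice, 4 to 17 for OBX in Lip-C mice, 0 to 3 for Lip-C in sham mice, 0 to 1 for Lip-C in OBX mice, 0 to 1 for the interaction and 15 to 25 for OBX over both treatments; these fits leave 2 arrays in 1 group. With the replicate number as a block the counts were 16, 15, 2, 0, 0 and 23 in the same order, and class I counts for OBX were 1 of 14 in Lip-O and 4 of 14 in Lip-C mice; among named values the block lost Olfr870 and gained 1 Olfr78 probe set (adjusted p = 0.0307), both in Lip-C mice. Same-numbered samples of the other pairs within a treatment or operation also had positive r. For Lip-O OBX with Lip-C OBX it was 0.083, 0.133 and 0.232, highest for arrays 3. It was 0.264, 0.0578 and 0.0935 for Lip-O sham with Lip-C sham, and 0.117, 0.0487 and 0.0847 for Lip-C sham with Lip-C OBX. Differently numbered samples gave -0.218 to 0.132 for the former and -0.129 to 0.0489 for the latter, which overlaps the same-numbered values. For Lip-O OBX with Lip-C OBX they gave -0.166 to 0.0373, under the same-numbered values. For same-numbered samples of groups that differ in both, r ran from -0.0331 to 0.116. Without both OBX arrays 3 OBX lowered 23 receptors in Lip-O mice and 17 after clodronate. Of 1339 alternatives to 56 named values, 1213 kept direction and side of the threshold, 94 lost and 21 gained the call, and 12 of 27 calls held in every fit. The fit with only the compared groups does not apply to the interaction or to OBX over both treatments. The causes were not tested. Dim signals limit 10 of the 44 members, which could not be tested.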

Other observations

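Some receptors under the threshold for testing had their highest signals in Lip-O sham mice. Olfr315 had 116.6, 37.7 and 145.3 on the Lip-O sham arrays and 51.0, 5.7 and 18.1 on the Lip-O OBX arrays. On the Lip-C arrays it had 37.1, 54.3 and 46.8 on the Lip-C sham arrays and 31.7, 54.9 and 31.5 on the Lip-C OBX arrays. Olfr156, of the subfamily with the central patch, had 85.3, 49.0 and 51.5 on the Lip-O sham arrays and 4.1, 29.9 and 2.4 on the Lip-O OBX arrays. It had 44.6, 51.8 and 34.2 on the Lip-C sham arrays and 45.7, 31.0 and 60.0 on the Lip-C OBX arrays. Olfr155, of the same subfamily, had 68.9, 28.3 and 67.3 on the Lip-O sham arrays and 5.5, 4.2 and 4.9 on the Lip-O OBX arrays, so each OBX array was under every sham array. With clodronate it had 36.1, 19.8 and 7.7 on the Lip-C sham arrays and 41.0, 18.6 and 40.6 on the Lip-C OBX arrays, and there the groups overlapped. Olfr159 stayed between 3.2 and 9.7 on all 12 arrays. Olfr2, a receptor for octanal, stayed between 7.6 and 32.2. Signals this low were not tested.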
